A study of Mus musculus with 12 samples.

Results

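Transcripts of 41 genes of the endoplasmic reticulum (ER) were followed across 4 groups of mouse T cells. The genes were taken from a list covering chaperones, sensors of the unfolded protein response (UPR), ER-associated degradation and the machinery that brings new proteins into the ER, and 40 of them could be measured on the array, out of 18193 genes in all. The exception was Sec61g, whose only probe set also matched other genes. Each gene was read from its brightest probe set, by the mean of the 12 arrays. The cells came from spleens of female C57BL/6 mice, whose age the labels give as 8 to 12 weeks. The groups were 5 cultures of CD8+ NKT-like cells, 3 of cultured CD4+ T cells, 2 samples of activated CD8+ T cells and 2 of naive CD8+ T cells. NKT-like cells grew from splenic CD8+ T cells on beads coated with anti-CD3 and anti-CD28 in high-dose IL-2, and cultured CD4+ T cells grew from sorted splenic CD4+ T cells in the same way. Activated CD8+ T cells had received a low dose of the same antibodies in soluble form, and naive CD8+ T cells were freshly isolated by negative selection, without a final sort. The comparisons ask what sets the suppressive NKT-like cells apart from T cells that went through the same expansion, from ordinary stimulated CD8+ T cells and from resting ones. Fresh CD4+ T cells were not analysed here, so lineage and culture cannot be told apart when cultured CD4+ cells are set against naive CD8+ cells.

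Proteins bound for the cell surface, for secretion or for lytic granules enter the ER through the Sec61 channel, lose their signal peptide to signal peptidase, receive N-linked sugars from the oligosaccharyltransferase and fold with the help of Hsp70 and Hsp90 chaperones, lectins and disulfide isomerases. Proteins that do not fold are pulled back to the cytosol and degraded. When unfolded proteins accumulate, the sensors IRE1 (Ern1), ATF6 and PERK (Eif2ak3) start the UPR: IRE1 splices the Xbp1 transcript into that of an active transcription factor, ATF6 is cut to release another, and PERK slows translation and favours that of ATF4. XBP1 is best known for building the secretory apparatus of plasma cells. The arrays report the amount of transcript and neither splicing of Xbp1 nor the activity of a sensor.

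Several of these genes carry the ER stress response element (ERSE) in their promoters, to which NF-Y and cleaved ATF6 or XBP1 bind. The element was searched on both strands, as CCAAT and CCACG with 9 bases of any kind between them, in RefSeq promoter windows from 250 bases before to 50 bases after each gene's start on GRCm38.p6. It was found for 8 of the 30 members with a window (26.7%) and for 37 of 27025 genes with a window (0.137%). A related element, ERSE-II, which is ATTGG and CCACG with 1 base between them, was found for Herpud1 and Dnajb11 and for 12 of 27025 genes (0.0444%), and no member's window held both. The UPR element TGACGTGG was in none of the 30 windows, against 0.714% of genes. The stretches that hold an element before the start are shown because they hold the sites through which the UPR is known to act on such genes. Each is printed 5′ to 3′ on the gene's strand with 20 bases on each side, and capitals mark the fixed letters of the element, which read CGTGG and ATTGG where the element lies on the opposite strand.
Calr ERSE (chr8:84847055-84847113, minus strand): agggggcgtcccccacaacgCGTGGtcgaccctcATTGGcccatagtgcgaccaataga
Canx ERSE (chr11:50325780-50325838, minus strand): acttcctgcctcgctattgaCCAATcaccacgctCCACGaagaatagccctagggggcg
Creld2 ERSE (chr15:88819500-88819558, plus strand): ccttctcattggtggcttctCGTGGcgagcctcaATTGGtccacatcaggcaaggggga
Derl3 ERSE (chr10:75893222-75893280, plus strand): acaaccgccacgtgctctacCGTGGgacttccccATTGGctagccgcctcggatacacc
Herpud1 ERSE-II (chr8:94386357-94386407, plus strand): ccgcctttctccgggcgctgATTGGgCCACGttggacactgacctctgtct
Hsp90b1 ERSE (chr10:86705618-86705676, minus strand): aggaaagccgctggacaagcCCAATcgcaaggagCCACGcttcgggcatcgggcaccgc
Hsp90b1 ERSE (chr10:86705513-86705571, minus strand): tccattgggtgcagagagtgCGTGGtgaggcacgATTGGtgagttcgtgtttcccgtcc
Hspa5 ERSE (chr2:34772005-34772063, plus strand): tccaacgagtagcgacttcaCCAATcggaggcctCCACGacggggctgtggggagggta
Pdia6 ERSE (chr12:17266471-17266529, plus strand): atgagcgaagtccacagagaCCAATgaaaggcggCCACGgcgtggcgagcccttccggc
Syvn1 ERSE (chr19:6046512-6046570, plus strand): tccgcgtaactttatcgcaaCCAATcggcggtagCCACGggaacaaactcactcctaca
Of the 8 members with an ERSE, 7 were higher and 1 (Derl3) was lower in NKT-like than naive cells, with a median difference of 1.22 log2. Of the 22 with a window and no ERSE, 13 were higher, with a median of 1.23 log2. In cultured CD4+ cells 6 of 8 with an ERSE and 11 of 22 without were higher (medians 1.13 and 0.90 log2), and in activated cells 3 of 8 and 4 of 22 (medians 0.83 and 0.40 log2). These differences were not tested. Of all genes, 10.7%, 11.6% and 4.43% were higher than naive in NKT-like, cultured CD4+ and activated cells. Of genes with a mean of 9 log2 or more, the shares were 27.5%, 30.9% and 14.2%. A match of letters is no evidence of binding, and 10 members had no matched window. Dnajc3 was among them because its gene number was rounded before matching, so whether it has a window is not known here.

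The values are log2 signals after RMA, 1 array a sample, with array medians of 6.23 to 6.42. The spread was not equal. The standard deviation (SD) over probe sets was 1.83 and 1.78 in naive replicates 1 and 2 and 1.80 in activated replicate 2, against 1.91 to 2.03 in the other 9 arrays. The 95th percentile was correspondingly 9.94 to 10.01 in those 3 arrays and 10.33 to 10.53 in the rest, so bright genes as a class read lower there. Members were mostly bright: 33 of 40 averaged 9 log2 or more, as did 3526 of all genes. Activated replicate 2 was below replicate 1 for 38 of 40 members and for 95.1% of those bright genes. Cd8a, a chain of the CD8 coreceptor, averaged 10.91 ± 0.65 log2 in NKT-like, 6.73 ± 0.27 in cultured CD4+, 10.30 ± 0.37 in activated and 11.39 ± 0.46 in naive samples (SD, n = 5, 3, 2 and 2), as the labels require. The naive samples also held transcripts of other spleen cells. The summed linear signal of 11 measured B and plasma cell markers was 698 to 830 in NKT-like, 680 to 783 in cultured CD4+, 987 to 1001 in activated and 9454 to 10595 in naive samples. Jchain, the antibody joining chain of plasma cells, differed by -7.27 log2 and Pou2af1, a B cell coactivator, by -3.68 log2 in NKT-like against naive cells. The sum of 7 measured markers of red cell precursors was 590 to 660, 575 to 689, 682 to 799 and 5785 to 8333 in the same order of groups, led by Car1 and Klf1 (-5.40 and -4.23 log2 in NKT-like against naive cells). The sum of 8 myeloid markers was 661 to 770, 562 to 700, 625 to 910 and 830 to 966, led by S100a9 and Mpo. Plasma cells are rich in ER transcripts, and the part these cells have in the naive values was not tested. In such bulk samples fewer cells of a type and less RNA per cell cannot be told apart.

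Most of the ER genes stood above naive CD8+ T cells in both long-term cultures. In NKT-like cells 25 of 40 members were higher, 1 was lower and 14 did not pass a q-value of 0.01, with a median difference of 1.13 log2 (limma over all 45037 probe sets, Storey q). Over all genes, 10.7% were higher and 6.86% lower in that comparison, with a median of -0.05 log2. Among the 3526 genes of 9 log2 or more, a level set after the data were seen, 27.5% were higher and 4.71% lower with a median of 0.43, against 23 of the 33 members in that range with a median of 1.18. In cultured CD4+ cells 24 members were higher and 1 was lower, with a median of 1.04 log2, against 11.6% and 5.64% of all genes. Of the bright genes 30.9% were higher and 3.55% lower with a median of 0.52, against 22 of 33 bright members and a median of 1.15. In activated cells 8 members were higher and none lower, with a median of 0.53 log2, against 4.43% and 2.78% of all genes and 14.2% of bright genes higher (median 0.28). At an unadjusted p under 0.05, in either direction, there were 22 members (55%) in activated cells, against 50.5% of bright genes and 27.2% of all genes. All 3 comparisons share the naive samples. After quantile normalization, which equalizes the spread of the arrays, they gave 20 higher and 1 lower, 16 higher and 2 lower, and 8 higher and 3 lower, with medians of 0.73, 0.69 and 0.28 log2. The medians of all genes were then -0.02, -0.02 and -0.005 log2. Shares called and bright-gene medians are given for the deposited values only, so these counts cannot be set beside them. Without naive replicate 2, with the lone naive sample assumed to vary like the other groups, 9, 8 and 1 members were higher, while the medians were 1.07, 1.02 and 0.49 log2. Without naive replicate 1 the counts were 20, 19 and 5, and without activated replicate 1 the activated count was 1 with a median of 0.26. Without cultured CD4+ replicate 2 or 3, 16 members were higher in cultured CD4+ cells.

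**Figure D1:**
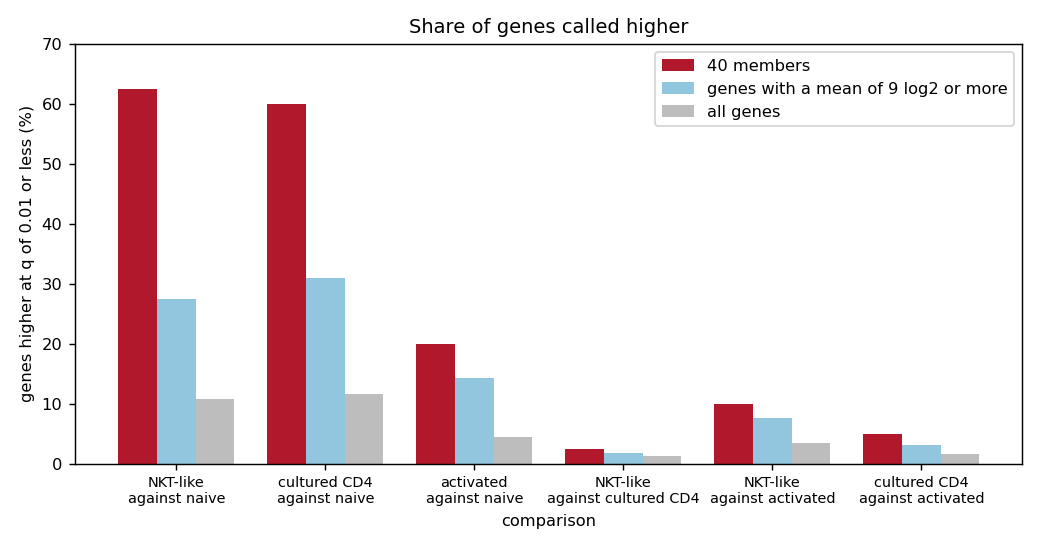
Share of genes higher at a q-value of 0.01 or less (y axis, percent) in 6 comparisons (x axis), for the 40 members, the 3526 genes with a mean of 9 log2 or more and all 18193 genes. Against naive cells 62.5% of members were higher in NKT-like cells and 60% in cultured CD4+ cells, against 27.5% and 30.9% of the bright genes.

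The same 8 members were higher in all 3 groups than naive cells: Hspa5, Hsp90b1, Canx, P4hb, Ssr1, Ssr3, Spcs2 and Ostc. Another 13 were higher in both cultures only by the q threshold, 4 in NKT-like cells (Sdf2l1, Creld2, Eif2ak3 and Ddost) and 3 in cultured CD4+ cells (Atf6, Spcs1 and Spcs3), and 11 passed nowhere against naive. Passing in one group and missing in another was not a test of their difference. By group mean, 25 members were highest in NKT-like cells, 12 in cultured CD4+ cells and 3 in naive cells, and 29 were lowest in naive and 10 in activated cells. The shares of all genes or of bright genes with these patterns of calls and of group means were not counted. Bright genes as a class read lower in both naive arrays and in activated replicate 2, so these counts cannot be read as particular to the members. By their brightest probe sets, the 3 that were highest in naive cells, Dnajb9, Derl1 and Derl3, were all lowest in activated cells. The other probe sets of Derl1 put NKT-like cells above naive cells, without a call.

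**Figure D2:**
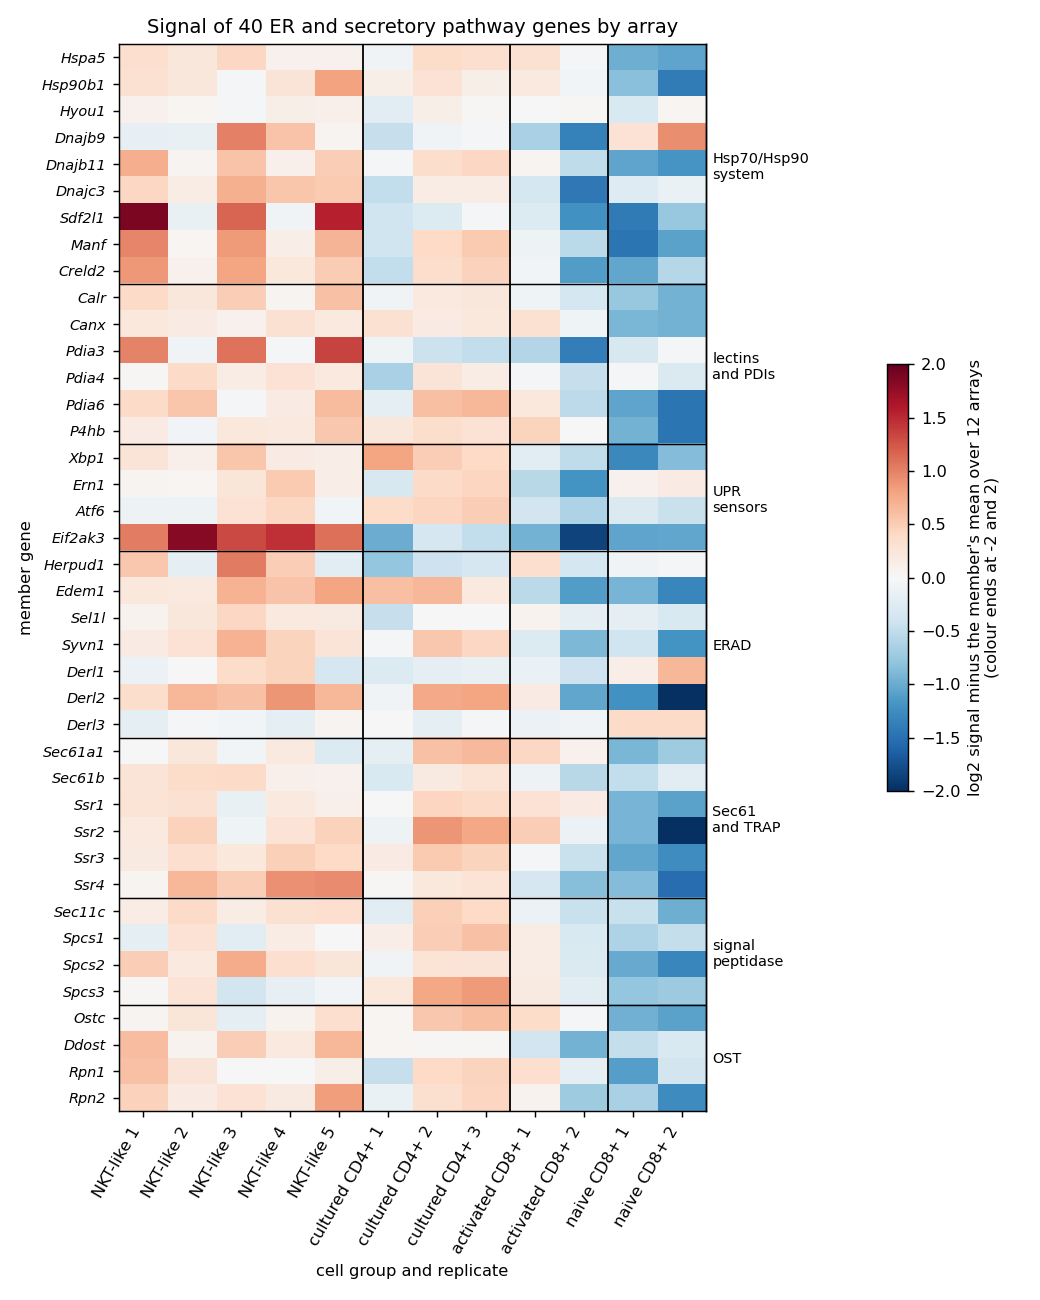
Log2 signal of the 40 members (rows, by role) on the 12 arrays (columns, NKT-like to naive), each minus the member's mean over the arrays, with colours ending at -2 and 2. The naive columns are below the mean for most rows, Eif2ak3 is high only in the 5 NKT-like columns, and activated replicate 2 is below replicate 1 for 38 of 40 rows.

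In the Hsp70 and Hsp90 system of the ER the cofactors Sdf2l1, Manf and Dnajb9 varied most between groups. Of 9 members 6 were higher in NKT-like cells, 4 in cultured CD4+ cells and 2 in activated cells than naive cells. After quantile normalization these counts were 4, 2 and 1, and 2 members were lower in activated cells. Beside the deposited counts of this role, 10.7%, 11.6% and 4.43% of all genes were higher in the same order of groups. Of bright genes 27.5%, 30.9% and 14.2% were higher. Sdf2l1, a partner of BiP that helps keep clients soluble, measured 10.52, 8.50, 9.81, 8.57 and 10.20 log2 in the NKT-like cultures, 8.24, 8.37 and 8.61 in the cultured CD4+ samples, 8.36 and 7.43 in the activated samples and 7.22 and 7.89 in the naive samples. All NKT-like cultures lay above the naive samples, but replicates 2 and 4 sat among the cultured CD4+ samples, well below the other NKT-like cultures. The difference from naive was 1.97 ± 0.52 log2 in NKT-like cells (standard error of the fit, q = 0.0085) and 0.85 ± 0.57 in cultured CD4+ cells (q = 0.13). Manf, a secreted ER stress protein, measured 11.77, 10.83, 11.64, 10.92 and 11.48 log2 in the NKT-like cultures, 10.40, 11.19 and 11.32 in the cultured CD4+ samples, 10.69 and 10.25 in the activated samples and 9.33 and 9.72 in the naive samples. Every cultured and activated sample was above both naive samples, and no NKT-like culture reached down to the activated ones. It was 1.80 ± 0.31 log2 higher in NKT-like (q = 0.00093) and 1.44 ± 0.34 higher in cultured CD4+ cells (q = 0.0048) and differed by 0.94 ± 0.37 in activated cells (q = 0.086). Dnajb9 (ERdj4), a J-protein that recruits BiP to misfolded clients and to IRE1, ran the other way. It measured 8.78, 8.80, 9.94, 9.52 and 8.996 log2 in the NKT-like cultures, 8.49, 8.88 and 8.92 in the cultured CD4+ samples, 8.30 and 7.59 in the activated samples and 9.23 and 9.87 in the naive samples. Both naive samples were above all cultured CD4+ and activated samples and within the range of the NKT-like cultures. Activated cells differed from naive by -1.61 ± 0.39 log2 and missed the threshold (q = 0.015), but passed after quantile normalization (-1.90 log2, q = 0.0032).

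Hspa5 (BiP), the ER Hsp70 and the central sensor of unfolded proteins, averaged 12.89 ± 0.15 log2 in NKT-like, 12.86 ± 0.25 in cultured CD4+, 12.79 ± 0.25 in activated and 11.64 ± 0.06 in naive samples (SD). It was 1.25, 1.23 and 1.15 log2 above naive (q = 0.00011, 0.00024 and 0.0019), with no overlap. Its probe set with a mean of 10.92 log2 gave 1.76, 1.37 and 1.35 log2 (q = 0.00014, 0.0011 and 0.0053). The one with a mean of 10.18 log2 gave -0.21, -0.22 and 0.13 log2 and passed nowhere (q = 0.11, 0.12 and 0.43). Hsp90b1 (GRP94), the ER Hsp90, was 1.43, 1.29 and 1.18 log2 above naive, and Dnajb11 (ERdj3), a secreted J-protein, 1.50 and 1.37 log2 in the 2 cultures. Creld2, an ER stress protein with disulfide isomerase activity, was 1.30 log2 higher in NKT-like cells (q = 0.0074). Hyou1, the exchange factor of BiP, differed by 0.20, 0.10 and 0.14 log2 and passed nowhere. Dnajc3 (p58IPK), which aids folding and inhibits eIF2α kinases, differed by 0.67, 0.13 and -0.69 log2 from naive, none of them called, although activated cells were lower after quantile normalization (-0.94 log2, q = 0.0097), and was 1.36 log2 higher in NKT-like than in activated cells (q = 0.0078). Without naive replicate 2 the NKT-like calls of Sdf2l1 (q = 0.056), Manf (q = 0.012), Hsp90b1 (q = 0.015), Dnajb11 (q = 0.011) and Creld2 (q = 0.048) were lost, and those of Sdf2l1 (q = 0.078), Manf (q = 0.016) and Creld2 (q = 0.073) also without replicate 1, whereas Hspa5 passed without any 1 array. In cultured CD4+ cells Manf did not pass without cultured CD4+ replicate 2 (q = 0.024) or 3 (q = 0.023) or without naive replicate 1 (q = 0.042) or 2 (q = 0.027), nor did Dnajb11 (q = 0.017) or Hsp90b1 (q = 0.025) without naive replicate 2. Hsp90b1 and Hspa5 in activated cells rested on activated replicate 1 (q = 0.056 and 0.018 without it) and on naive replicate 2 (q = 0.09 and 0.024), and Hspa5 missed narrowly without naive replicate 1 (q = 0.011). Sdf2l1 also missed without NKT-like replicate 1, 3 or 5 (q = 0.014 to 0.016) or without a cultured CD4+ array (q = 0.01 to 0.013), Creld2 without NKT-like replicate 1, 3, 4 or 5 (q = 0.011 to 0.016) or cultured CD4+ replicate 2 (q = 0.01 after rounding), and Hsp90b1 in activated cells without 5 of the 8 NKT-like and cultured CD4+ arrays (q = 0.011 to 0.013).

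Calreticulin, calnexin and 2 of the 4 disulfide isomerases were higher in both cultures. Pdia6, which reduces the disulfides of clients and of the sensors, measured 11.06, 11.23, 10.64, 10.84 and 11.31 log2 in the NKT-like cultures, 10.50, 11.27 and 11.33 in the cultured CD4+ samples, 10.89 and 10.15 in the activated samples and 9.61 and 9.22 in the naive samples. No sample of the other groups reached down to the naive pair. It was 1.60 ± 0.27 log2 above naive in NKT-like (q = 0.00091) and 1.62 ± 0.30 in cultured CD4+ cells (q = 0.0014), and neither passed without naive replicate 2 (1.40 log2, q = 0.031, and 1.42 log2, q = 0.029). P4hb, the classical disulfide isomerase, measured 12.09, 11.87, 12.14, 12.11 and 12.46 log2 in the NKT-like cultures, 12.15, 12.27 and 12.21 in the cultured CD4+ samples, 12.36 and 11.93 in the activated samples and 10.97 and 10.46 in the naive samples. The 3 groups overlapped each other and lay well above naive, with differences of 1.42 ± 0.18, 1.49 ± 0.19 and 1.43 ± 0.21 log2 (q = 0.00014, 0.00019 and 0.0014). The activated difference missed without activated replicate 1 (q = 0.014) or naive replicate 2 (q = 0.02). Pdia3 (ERp57), which folds glycoproteins with the lectins and serves the loading complex of MHC class I, measured 12.53, 11.47, 12.63, 11.51 and 12.89 log2 in the NKT-like cultures, 11.46, 11.12 and 11.05 in the cultured CD4+ samples, 10.96 and 10.16 in the activated samples and 11.23 and 11.52 in the naive samples. NKT-like replicates 1, 3 and 5 were above every other sample, replicates 2 and 4 were at the level of naive replicate 2, and both activated samples were below all others. Its difference from naive was 0.83 ± 0.38 log2 in NKT-like cells (q = 0.057), -0.17 ± 0.42 in cultured CD4+ cells (q = 0.33) and -0.81 ± 0.46 in activated cells (q = 0.20).

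The lectin chaperones, which hold sugar-bearing clients until they fold, were both higher in the 2 cultures. Canx was 1.13 ± 0.11, 1.15 ± 0.12 and 1.04 ± 0.13 log2 above naive in NKT-like, cultured CD4+ and activated cells (q = 3.2e-05, 5.3e-05 and 0.00065), and all 3 calls held without any 1 array. Calr was 1.20 ± 0.15 and 0.97 ± 0.17 log2 higher in the 2 cultures (q = 0.00017 and 0.001) and 0.63 ± 0.18 above naive in activated cells (q = 0.032). In cultured CD4+ cells the Calr call was lost without naive replicate 2 (q = 0.022). Pdia4, a disulfide isomerase that binds BiP, differed by 0.37, 0.08 and -0.09 log2 and was not called by this probe set.

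Eif2ak3, which encodes PERK, was the only member called between NKT-like and cultured CD4+ cells, where 1.24% of all genes were higher and 1.85% lower (1.70% and 2.44% of bright genes). It measured 10.40, 11.19, 10.69, 10.83 and 10.47 log2 in the NKT-like cultures, 8.38, 9.04 and 8.88 in the cultured CD4+ samples, 8.42 and 7.52 in the activated samples and 8.32 and 8.34 in the naive samples. The 5 NKT-like cultures lay between 10.40 and 11.19 log2, and no other sample exceeded 9.04. Expression in NKT-like cells was 5.22-fold that of naive (2.39 ± 0.27 log2, q = 6.8e-05), 3.86-fold that of cultured CD4+ (1.95 ± 0.23, q = 0.00057) and 6.70-fold that of activated cells (2.74 ± 0.27, q = 0.00012). Cultured CD4+ and activated cells differed from naive by 0.44 ± 0.29 (q = 0.13) and -0.36 ± 0.32 log2 (q = 0.35). All 3 NKT-like calls held when any 1 array was left out. The other 2 probe sets of the gene, with means of 6.73 and 4.95 log2, gave smaller differences of the same sign, 1.55 and 1.31 log2 against naive (q = 0.0001 and 0.00063) and 1.23 and 1.14 against cultured CD4+ cells (q = 0.0011 and 0.0039). Against cultured CD4+ cells the brighter of them missed narrowly without cultured CD4+ replicate 3 (1.13 log2, q = 0.01 after rounding), as did the dimmer one (1.07 log2, q = 0.03). The dimmer one also missed there without cultured CD4+ replicate 1 (q = 0.016) or NKT-like replicate 3 or 5 (q = 0.01 and 0.012), and against naive cells without naive replicate 2 (q = 0.018).

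**Figure D3:**
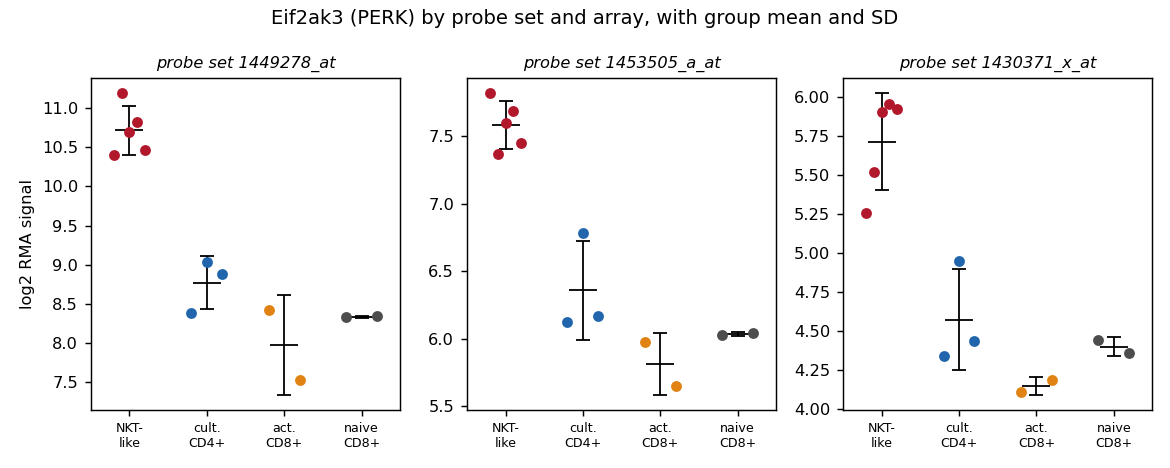
Log2 signal of Eif2ak3 (y axis) by array for its 3 probe sets (panels), in NKT-like, cultured CD4+, activated and naive cells (x axis). Points are arrays, bars the group mean and SD. In every panel the 5 NKT-like points lie above all others, and the probe sets differ in level.

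Xbp1, Ern1 and Atf6, the other UPR members, were not called between NKT-like and cultured CD4+ cells. Xbp1 measured 12.22, 12.08, 12.53, 12.15 and 12.11 log2 in the NKT-like cultures, 12.76, 12.46 and 12.37 in the cultured CD4+ samples, 11.76 and 11.46 in the activated samples and 10.68 and 11.11 in the naive samples. Naive, activated and cultured samples formed steps that did not overlap, while NKT-like and cultured CD4+ samples overlapped. It was 1.32 ± 0.17 log2 higher in NKT-like (q = 0.00015) and 1.64 ± 0.18 higher in cultured CD4+ cells (q = 7.1e-05) and 0.72 ± 0.20 above naive in activated cells (q = 0.026). The activated step was not shared by all probe sets of Xbp1: those with means of 11.96 and 10.83 log2 gave -0.10 and 0.29 log2 there (q = 0.56 and 0.27), whereas both were higher in each culture (1.05 to 1.59 log2). Ern1, which encodes IRE1α, differed by 0.08, 0.04 and -0.999 log2 and passed nowhere (q = 0.34, 0.38 and 0.023). Atf6 was 0.80 ± 0.17 log2 higher in cultured CD4+ than naive cells (q = 0.0027) and 0.92 ± 0.17 higher than in activated cells (q = 0.0089), and 0.46 ± 0.15 above naive in NKT-like cells (q = 0.02). Its call against naive was lost without either naive sample (q = 0.013 and 0.043) or without cultured CD4+ replicate 2 or 3 (q = 0.012 and 0.013), and its call against activated cells without any 1 of 10 arrays (q = 0.011 to 0.10). Among 11 genes on the PERK to ATF4 route, 5 were higher and none lower in NKT-like than naive cells, 2 in cultured CD4+ and 2 in activated cells, with medians of 1.22, 0.22 and 1.35 log2. The shares higher were 10.7%, 11.6% and 4.43% of all genes and 27.5%, 30.9% and 14.2% of bright genes, in that order of groups. Asns, the asparagine synthetase and a classical ATF4 target, was 2.36 log2 higher in NKT-like than naive cells (q = 7.8e-05), Atf4 itself 1.93 log2 (q = 0.0021) and Atf3, a stress-induced repressor, 1.25 log2 (q = 0.00036). Asns averaged 10.91 log2 in NKT-like cells, 9.27 in cultured CD4+ cells, 10.89 in activated cells and 8.55 in naive cells. Its activated difference from naive of 2.34 log2 (q = 0.00097) missed narrowly without activated replicate 1 or naive replicate 2 (q = 0.011 each). The Atf4 call was lost when naive replicate 1 (q = 0.014) or 2 (q = 0.05) was left out. Against cultured CD4+ cells 2 of the 11 were higher in NKT-like cells, Asns (1.64 log2, q = 0.0019) and Sesn2, a regulator of nutrient signalling (1.00 log2, q = 0.0067), Sesn2 being named after its value was seen. In that comparison 1.24% of all genes and 1.70% of bright genes were higher. Sesn2 was not called there without any 1 cultured CD4+ array (q = 0.012 to 0.026) or without NKT-like replicate 1, 2, 3 or 5 (q = 0.016 to 0.019).

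**Figure D4:**
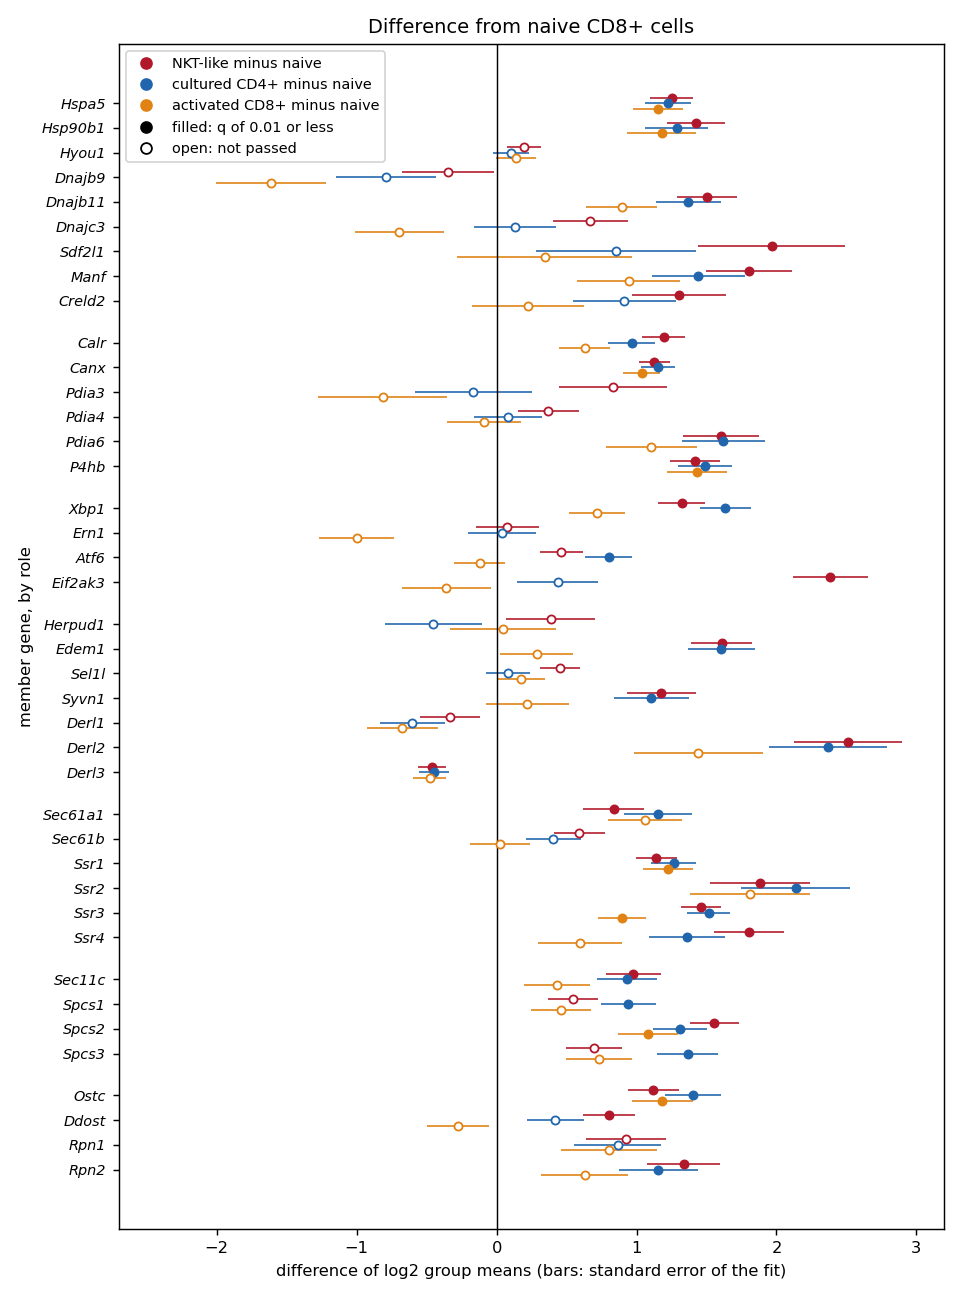
Difference of log2 group means from naive CD8+ cells (x axis) for each member (y axis, by role) in NKT-like, cultured CD4+ and activated cells, with the standard error of the fit. Filled points passed a q-value of 0.01, and most filled points lie to the right of 0, with Derl3 to the left and Eif2ak3 at 2.39 in NKT-like cells alone.

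ER-associated degradation was divided. Of 7 members 3 were higher and 1 lower in each culture, and none was called in activated cells. After quantile normalization 3 were higher and 1 lower in NKT-like cells, 2 higher and 2 lower in cultured CD4+ cells and 1, Derl3, lower in activated cells. As deposited, 10.7% of all genes were higher and 6.86% lower in NKT-like cells, and 11.6% and 5.64% in cultured CD4+ cells. Bright genes had 27.5% higher and 4.71% lower in NKT-like cells, and 30.9% and 3.55% in cultured CD4+ cells. Derl2, a component of the channel through which proteins leave the ER, measured 8.86, 9.18, 9.09, 9.40 and 9.17 log2 in the NKT-like cultures, 8.43, 9.27 and 9.30 in the cultured CD4+ samples, 8.67 and 7.47 in the activated samples and 7.31 and 5.96 in the naive samples. All cultured and activated samples were above both naive samples, although the naive pair differed widely from each other. It was 5.69-fold higher in NKT-like (2.51 ± 0.39 log2, q = 0.0005) and 5.16-fold higher in cultured CD4+ cells (2.37 ± 0.42, q = 0.0012), and without naive replicate 2 neither passed (1.84 log2, q = 0.019, and 1.69 log2, q = 0.025). The other probe set of Derl2, with a mean of 6.66 log2, showed no such rise in NKT-like (0.02 log2, q = 0.38) or cultured CD4+ cells (-0.13 log2, q = 0.25). Edem1, a mannosidase-like protein that marks glycoproteins for removal, measured 11.28, 11.25, 11.75, 11.63 and 11.85 log2 in the NKT-like cultures, 11.66, 11.72 and 11.27 in the cultured CD4+ samples, 10.52 and 9.94 in the activated samples and 10.13 and 9.76 in the naive samples. NKT-like and cultured CD4+ samples overlapped with each other and stood above every activated and naive sample. It was 1.61 and 1.60 log2 above naive (q = 0.00024 and 0.00043), and without naive replicate 2 both missed narrowly (q = 0.011 each). Its other probe set, with a mean of 10.28 log2, gave only 0.32 and 0.23 log2 (q = 0.12 and 0.20). Syvn1 (HRD1), the ubiquitin ligase of the pathway, measured 9.26, 9.39, 9.80, 9.55 and 9.37 log2 in the NKT-like cultures, 9.06, 9.64 and 9.51 in the cultured CD4+ samples, 8.83 and 8.20 in the activated samples and 8.69 and 7.90 in the naive samples. NKT-like and cultured CD4+ samples were again above all activated and naive ones, by 1.18 ± 0.25 and 1.11 ± 0.27 log2 against naive (q = 0.0028 and 0.0059). A second probe set of nearly the same level, a mean of 8.98 against 9.10 log2, passed in neither culture (0.68 log2, q = 0.02, and 0.49 log2, q = 0.069). Neither call held without naive replicate 2 (q = 0.089 and 0.11), and the cultured CD4+ call was also lost without cultured CD4+ replicate 2 or 3 (q = 0.029 and 0.025).

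Derl3, a relative of Derl2 that is abundant in secretory cells such as plasma cells, was lower than naive cells. It measured 7.50, 7.66, 7.64, 7.49 and 7.75 log2 in the NKT-like cultures, 7.69, 7.51 and 7.65 in the cultured CD4+ samples, 7.57 and 7.61 in the activated samples and 8.07 and 8.06 in the naive samples. The naive pair stood above all 10 other samples. Markers of B and plasma cells and of red cell precursors were high in the same pair, and the part of such cells in the Derl3 values was not tested. Derl3 was lower in NKT-like (-0.46 ± 0.10 log2, q = 0.0031) and cultured CD4+ cells (-0.45 ± 0.11, q = 0.0055). Activated cells differed by -0.48 ± 0.12 (q = 0.016) and passed after quantile normalization (-0.59 log2, q = 0.0079). Without either naive sample no call remained (q = 0.026 to 0.049), nor did the cultured CD4+ call without cultured CD4+ replicate 2 or 3 (q = 0.025 and 0.017). Derl1, the third derlin, differed by -0.33, -0.60 and -0.67 log2 and passed nowhere, but its cultured CD4+ difference passed after quantile normalization (-1.04 log2, q = 0.0028). The other probe sets of Derl1, with means of 9.21, 8.95 and 8.28 log2, gave 0.29, 0.10 and 0.14 log2 in NKT-like cells as deposited. In cultured CD4+ cells they gave -0.11, -0.90 and -0.09 log2, and none was called in either culture. Herpud1, a scaffold of the ligase complex, and Sel1l, its adaptor, were not called, with NKT-like differences from naive of 0.39 and 0.45 log2 (q = 0.16 and 0.017).

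In the deposited values most measured genes of the entry route into the ER were higher in both cultures. Of 6 measured members of the Sec61 channel and of TRAP, the translocon-associated complex that helps signal sequences open the channel, 5 were higher in each culture and 2 in activated cells. After quantile normalization 4, 3 and 3 were higher in NKT-like, cultured CD4+ and activated cells. Sec61a1 was then called in neither culture (0.46 log2, q = 0.056, and 0.75 log2, q = 0.015). The shares of all genes higher as deposited were 10.7%, 11.6% and 4.43% in NKT-like, cultured CD4+ and activated cells. Those of bright genes were 27.5%, 30.9% and 14.2%. Ssr2 (TRAPβ) measured 9.35, 9.60, 9.06, 9.43 and 9.62 log2 in the NKT-like cultures, 9.05, 10.04 and 9.92 in the cultured CD4+ samples, 9.65 and 9.04 in the activated samples and 8.22 and 6.84 in the naive samples. All 10 cultured or activated samples were above both naive samples, which themselves differed widely. It was 1.88 ± 0.36, 2.14 ± 0.39 and 1.81 ± 0.43 log2 above naive (q = 0.0017, 0.0014 and 0.013, the last not passed), and without naive replicate 2 the 2 calls were lost (1.19 log2, q = 0.053, and 1.44 log2, q = 0.026). Ssr3 (TRAPγ) measured 10.91, 11.06, 10.93, 11.20 and 11.13 log2 in the NKT-like cultures, 10.89, 11.24 and 11.17 in the cultured CD4+ samples, 10.69 and 10.28 in the activated samples and 9.69 and 9.49 in the naive samples. Activated samples lay between the cultures and the naive pair. It was 1.46 ± 0.14, 1.51 ± 0.16 and 0.90 ± 0.17 log2 higher (q = 2.9e-05, 4.4e-05 and 0.0048), and the first 2 calls held without any 1 array, whereas the activated one did not pass without activated replicate 1 (q = 0.04), naive replicate 1 (q = 0.016) or naive replicate 2 (q = 0.056).

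Ssr4 (TRAPδ) measured 11.18, 11.78, 11.61, 12.03 and 12.06 log2 in the NKT-like cultures, 11.15, 11.33 and 11.39 in the cultured CD4+ samples, 10.78 and 10.27 in the activated samples and 10.25 and 9.60 in the naive samples. Activated replicate 2 lay next to naive replicate 1, and all cultured samples were above both. It was 1.81 ± 0.25 log2 higher in NKT-like (q = 0.00027) and 1.36 ± 0.27 higher in cultured CD4+ cells (q = 0.0022). These values rest on a probe set whose suffix marks a possible match to more than 1 transcript. The gene's 2 other, dimmer probe sets gave -0.19 and -0.18 log2 in NKT-like cells, neither called. The NKT-like call was lost without naive replicate 2 (1.48 log2, q = 0.012), and the cultured CD4+ call without naive replicate 2 (q = 0.047) or cultured CD4+ replicate 2 or 3 (q = 0.012 and 0.011). Ssr1 (TRAPα) was 1.14, 1.26 and 1.22 log2 above naive (q = 0.00017, 0.00017 and 0.0012). The activated difference of Ssr1 missed without activated replicate 1 (q = 0.012) or naive replicate 2 (q = 0.017). Sec61a1, the pore itself, was 0.84 and 1.15 log2 higher in the 2 cultures (q = 0.0083 and 0.0028), but not without either naive sample (q = 0.022 to 0.069), in NKT-like cells without NKT-like replicate 1, 2, 3 or 4 (q = 0.013 to 0.018) or cultured CD4+ replicate 2 (q = 0.01 after rounding), or in cultured CD4+ cells without cultured CD4+ replicate 2 or 3 (q = 0.016 and 0.014). Sec61b, its small partner, was 0.59, 0.41 and 0.03 log2 above naive and was not called.

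**Figure D5:**
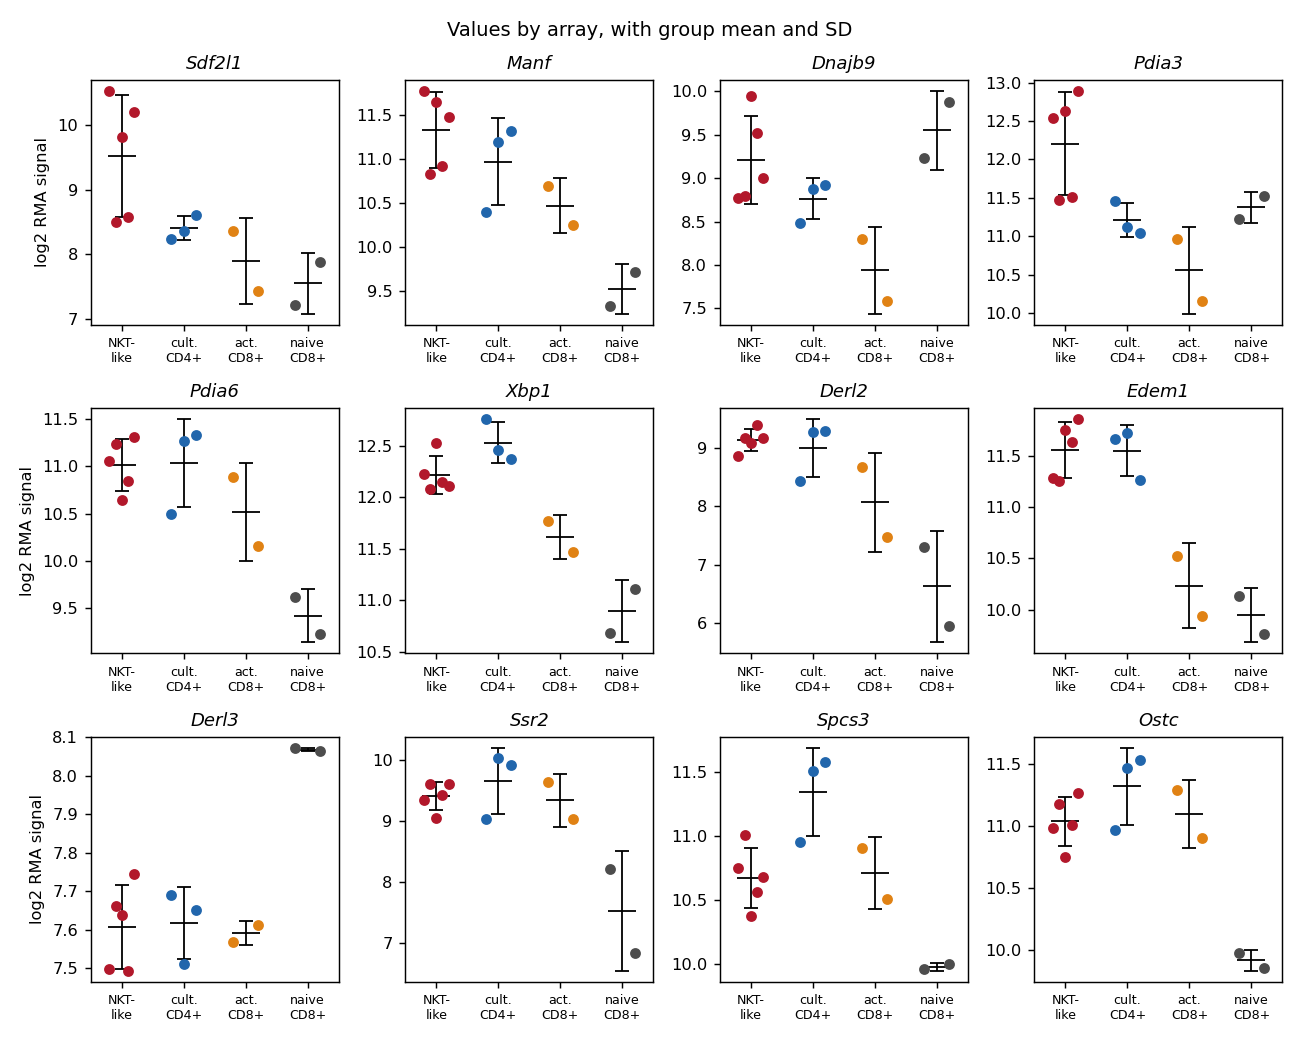
Log2 signal (y axis) of 12 members by array in NKT-like, cultured CD4+, activated and naive cells (x axis), with group mean and SD. Derl3 is highest in the naive pair, NKT-like cultures split widely for Sdf2l1 and Pdia3, and Spcs3 is highest in cultured CD4+ replicates 2 and 3.

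Signal peptidase, which cuts the signal sequence as the chain emerges, was the only role with all its members higher in cultured CD4+ cells, 4 of 4, against 2 of 4 in NKT-like and 1 of 4 in activated cells. After quantile normalization 1, 2 and 1 were higher in NKT-like, cultured CD4+ and activated cells. As deposited, 11.6%, 10.7% and 4.43% of all genes were higher in cultured CD4+, NKT-like and activated cells, and 30.9%, 27.5% and 14.2% of bright genes. No signal peptidase member was called between NKT-like and cultured CD4+ cells. Spcs2 measured 11.75, 11.46, 12.01, 11.59 and 11.51 log2 in the NKT-like cultures, 11.20, 11.54 and 11.52 in the cultured CD4+ samples, 11.41 and 10.97 in the activated samples and 10.25 and 9.96 in the naive samples. All cultured and activated samples were above the naive pair, and the differences were 1.56 ± 0.18, 1.31 ± 0.19 and 1.08 ± 0.21 log2 (q = 7.7e-05, 0.00042 and 0.0055). The NKT-like call held without any 1 array. The cultured CD4+ one missed narrowly without naive replicate 2 (q = 0.011), and the activated one missed without activated replicate 1 (q = 0.049) or naive replicate 1 or 2 (q = 0.016 and 0.065). Spcs3, which is needed for cleavage, measured 10.75, 11.01, 10.37, 10.57 and 10.68 log2 in the NKT-like cultures, 10.95, 11.51 and 11.58 in the cultured CD4+ samples, 10.91 and 10.51 in the activated samples and 9.96 and 10.001 in the naive samples. Cultured CD4+ replicates 2 and 3 were above every other sample, and the naive pair was below every other sample. It was 1.37 ± 0.22 log2 higher in cultured CD4+ cells (q = 0.00063), against 0.70 ± 0.20 in NKT-like (q = 0.012) and 0.73 ± 0.24 in activated cells (q = 0.048). Between NKT-like and cultured CD4+ cells it differed by -0.67 log2, which did not pass. Sec11c, a catalytic subunit, was 0.98 and 0.93 log2 higher in the cultures, and Spcs1, an accessory subunit, 0.94 log2 higher in cultured CD4+ cells. In NKT-like cells Spcs1 was 0.55 log2 above naive and missed the threshold (q = 0.02). Sec11c was called in neither culture without naive replicate 2 (q = 0.076 and 0.086) and not in cultured CD4+ cells without cultured CD4+ replicate 2 or 3 (q = 0.024 and 0.022). Spcs1 was not called without those 2 arrays (q = 0.015 and 0.014) or without either naive array (q = 0.025 and 0.024).

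In the oligosaccharyltransferase, which transfers the N-linked sugar, 3 of 4 members were higher in NKT-like cells, 2 in cultured CD4+ cells and 1 in activated cells. After quantile normalization these counts were 2, 1 and 1. As deposited, 10.7%, 11.6% and 4.43% of all genes and 27.5%, 30.9% and 14.2% of bright genes were higher in the same order. Ostc, a subunit that couples the enzyme to the channel, measured 10.98, 11.18, 10.75, 11.01 and 11.27 log2 in the NKT-like cultures, 10.97, 11.47 and 11.53 in the cultured CD4+ samples, 11.29 and 10.90 in the activated samples and 9.98 and 9.86 in the naive samples. The 3 groups overlapped each other and lay well above the naive pair, by 1.12 ± 0.18, 1.41 ± 0.20 and 1.18 ± 0.22 log2 (q = 0.00071, 0.00032 and 0.0042). A second, dimmer probe set of Ostc pointed the other way and was lower in NKT-like (-0.83 log2, q = 0.0071) and cultured CD4+ cells (-0.90 log2, q = 0.0074). The brighter one missed in NKT-like cells without naive replicate 2 (q = 0.022) and in activated cells without activated replicate 1 (q = 0.038) or naive replicate 1 or 2 (q = 0.02 and 0.045). Rpn2, a structural subunit, measured 10.45, 10.14, 10.27, 10.16 and 10.82 log2 in the NKT-like cultures, 9.85, 10.31 and 10.41 in the cultured CD4+ samples, 10.05 and 9.28 in the activated samples and 9.33 and 8.73 in the naive samples. The cultured samples were above all naive samples, and the activated pair straddled naive replicate 1. It was 1.34 ± 0.26 and 1.16 ± 0.28 log2 higher in the 2 cultures (q = 0.0018 and 0.006), but not without naive replicate 2 (1.04 log2, q = 0.06, and 0.86 log2, q = 0.099), nor in cultured CD4+ cells without cultured CD4+ replicate 2 or 3 (q = 0.027 each) or naive replicate 1 (q = 0.011). Rpn1, its partner, was 0.93 log2 above naive in NKT-like cells and missed the threshold (q = 0.016), whereas 2 of its other probe sets passed at 1.55 and 1.74 log2 (q = 0.0025 and 0.0012). Ddost, a further subunit, was 0.80 log2 higher in NKT-like cells (q = 0.0043), but not without naive replicate 1 (q = 0.045) or 2 (q = 0.042).

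Against activated CD8+ T cells 4 members were higher in NKT-like cells and none was lower, with a median of 0.55 log2, against 3.36% and 1.00% of all genes and 7.63% of the bright genes higher. In addition to Eif2ak3 and Dnajc3 these were Edem1 (1.32 log2, q = 0.0033) and Ddost (1.08 log2, q = 0.0039). Without activated replicate 2 only the Eif2ak3 call was left, and Dnajc3 (q = 0.094), Edem1 (q = 0.053) and Ddost (q = 0.059) missed. Dnajc3 also missed without any of 8 other arrays (q = 0.012 to 0.019). In cultured CD4+ cells 2 members were higher than in activated cells, Atf6 and Edem1 (1.32 log2, q = 0.009), against 1.53% of all genes and 3.15% of bright genes, and Edem1 missed there without any 1 of 11 arrays (q = 0.01 to 0.12). No member was lower, where 0.319% of all genes and 0.397% of bright genes were. Between NKT-like and cultured CD4+ cells the median difference of the members was 0.11 log2, with 10 members (25%) at an unadjusted p under 0.05, against 30.8% of bright genes and 18.2% of all genes.

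The NKT-like cultures did not agree equally for all members. Their SD was 0.065 to 0.936 log2 with a median of 0.22 and exceeded 0.5 for 4 members, namely Sdf2l1, Pdia3, Herpud1 and Dnajb9. For Sdf2l1, Pdia3 and Manf, replicates 2 and 4 were the lowest of the 5. Creld2 was likewise 9.42 and 9.56 log2 in replicates 2 and 4, against 10.21, 10.13 and 9.84 in replicates 1, 3 and 5, and Ddost 10.78 and 10.90 against 11.32, 11.20 and 11.37. Herpud1 did not follow them, at 9.95, 9.23, 10.45, 9.90 and 9.18 log2 in replicates 1 to 5, with replicate 5 as low as replicate 2. In cultured CD4+ cells replicate 1 was below both others for 34 of 40 members, against 67.2% of the bright genes and 38.1% of all genes.

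In neighbouring pathways outside the member list, the genes called between NKT-like and naive cells were all higher. Beside the counts that follow, 10.7%, 11.6% and 4.43% of all genes were higher than naive in NKT-like, cultured CD4+ and activated cells. Of the bright genes 27.5%, 30.9% and 14.2% were higher, and 4.71%, 3.55% and 3.86% were lower. Of 20 other ER folding genes 7 were higher and none lower in NKT-like than naive cells, 9 in cultured CD4+ cells and 2 in activated cells, with 1 lower there. Fkbp2, an ER prolyl isomerase, was 1.97 log2 higher in NKT-like cells (q = 0.00015), Ero1a, the oxidase that recharges disulfide isomerases, 1.59 log2 (q = 0.00011) and Prkcsh, a subunit of glucosidase II, 1.26 log2 (q = 0.0077). Prkcsh missed without either naive sample (q = 0.017 and 0.16), without NKT-like replicate 4 or 5 (q = 0.016 and 0.012) or without cultured CD4+ replicate 2 or 3 (q = 0.012 and 0.011). The gene lower in activated cells was Ero1b, a second such oxidase (-0.86 log2, q = 0.0046), which missed without activated replicate 1 (q = 0.038) or naive replicate 2 (q = 0.058). Of 15 other degradation genes 6 were higher in NKT-like cells, 4 in cultured CD4+ cells and 1 in activated cells. Vcp, the ATPase that extracts proteins from the membrane, was 1.84 log2 higher in NKT-like cells (q = 0.0014), Edem2, a relative of Edem1, 1.79 log2 (q = 0.0031) and Selenos, which anchors Vcp, 1.66 log2 (q = 0.00059). Without naive replicate 2 Vcp (q = 0.051), Edem2 (q = 0.046) and Selenos (q = 0.024) missed, and Edem2 also without naive replicate 1 (q = 0.029).

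Of 21 genes of the signal recognition particle, which delivers ribosomes to the channel, and of other translocation steps, 9 were higher in NKT-like cells, 8 in cultured CD4+ cells and 2 in activated cells, and none was lower. Srp72, a subunit of that particle, was 1.25 log2 higher in NKT-like cells (q = 4.9e-05), Krtcap2, a small oligosaccharyltransferase subunit, 1.20 log2 (q = 0.00036) and Sec63, which couples BiP to the channel, 1.20 log2 (q = 0.0014), the last not without naive replicate 1 (q = 0.019) or 2 (q = 0.023). Of 20 genes of transport from the ER to the Golgi 9 were higher in NKT-like cells, 8 in cultured CD4+ cells and 2 in activated cells, and none was lower. Ergic1, a cargo cycling protein, was 2.65 log2 higher in NKT-like cells (q = 4e-05), Sec24d, a cargo adaptor of the COPII coat, 1.79 log2 (q = 0.00018) and Sar1b, the GTPase that starts the coat, 1.56 log2 (q = 0.00073), the last not without naive replicate 2 (q = 0.027). The median differences of these 4 lists and of the PERK to ATF4 route from naive were 0.54, 0.59, 0.63, 0.78 and 1.22 log2 in NKT-like cells, beside -0.05 for all genes and 0.43 for the bright ones. In NKT-like, cultured CD4+ and activated cells the shares called higher were 10.7%, 11.6% and 4.43% of all genes and 27.5%, 30.9% and 14.2% of bright genes.

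Members were measured by 99 probe sets, and the choice among them mattered for some. In NKT-like against naive cells the called members had 30 further probe sets, of which 22 pointed the same way, 17 passed that way and 1, that of Ostc, passed the opposite way. In cultured CD4+ against naive cells there were 32, of which 22 pointed the same way, 17 passed that way and 1, again of Ostc, passed the opposite way. Dnajc3, Pdia4 and Spcs1 were not called in NKT-like against naive cells by their brightest probe set. Each had a dimmer one that was lower in NKT-like than naive cells (-0.77 log2, q = 0.0067, -0.60 log2, q = 0.0071, and -0.50 log2, q = 0.0066). That of Dnajc3 was also lower in cultured CD4+ (-1.16 log2, q = 0.0013) and activated cells (-1.13 log2, q = 0.0066).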

How the data were processed

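RNA of 12 samples was hybridized to 1 Affymetrix mouse array each. The deposited values are log2 signals that the authors made from the scans by RMA, which corrects background, normalizes and summarizes probes; no source used here gives the RMA version. Whether all 12 arrays were normalized in 1 run is not stated in the file, and the spread of the arrays differed. NKT-like replicate 2 shared 46 to 110 identical values with each other array, against 209 to 914 for pairs without it. The reason was not tested. Control probe sets (64 of 45101) were left out. Of 45037 probe sets tested, the platform annotation gives 34945 a single gene symbol, 932 several and 9160 none.

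A linear model with 1 mean per group was fitted to all 12 arrays with limma 3.58.1 in R 4.3.3 (lmFit, eBayes), as in the study's methods, and 6 pairwise differences were taken. Storey q-values were computed over all 45037 probe sets, and a gene was called at a q of 0.01 or less. A gene was its probe set with the highest mean among those with 1 symbol. The scripts were tested on simulated data. Per-sample values are given for the 3 members of each role (2 of a role of 4) with the widest range of group means and for a member called against its role. From other lists, up to 3 genes with the largest called change in NKT-like against naive cells are named. Members and lists were chosen with earlier results of these data known. The number of arrays, 2 in each of 2 groups, limits the precision. The study describes the expanded samples as independent cultures, but the labels tie no sample to an animal, so p-values measure the spread between these samples, which may in part be technical. Promoters are from RefSeq (GRCm38.p6) and were matched by Entrez gene number, which had been rounded to 6 digits. That rounding altered the number of Dnajc3. Alternatives covered the test, threshold, variance model, array weights, filter, normalization, choice of probe set, replicate number as a block and each array left out.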

Additional observations from a re-analysis of the deposited data

How the results depend on the processing

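Counts of members called against naive cells depended on the 2 naive arrays. With each array left out in turn, members higher numbered 9 to 28 in NKT-like, 8 to 26 in cultured CD4+ and 1 to 10 in activated cells, and members lower 0 to 1 in each. NKT-like cells had 1 to 1 member higher than cultured CD4+ cells and 1 to 6 higher than activated cells, and cultured CD4+ cells 0 to 5 higher than activated cells. The fewest against naive cells came without naive replicate 2 (for activated cells also without activated replicate 1), and the fewest in NKT-like against activated cells without activated replicate 2, while cultured CD4+ against activated cells fell to 0 without any 1 of 9 arrays. A lone sample was assumed to vary like the other groups.

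With each pair of groups fitted alone, 0 members were lower in cultured CD4+ and 0 higher in activated than naive cells, and 1 was higher in NKT-like and 0 in cultured CD4+ than in activated cells. Benjamini-Hochberg adjustment gave 0 lower in cultured CD4+ than in naive and 0 higher than in activated cells. A q of 0.05 gave 2 lower in cultured CD4+ and 16 higher and 3 lower in activated than naive cells, 1 lower in NKT-like than cultured CD4+ cells, and 13 and 5 higher in NKT-like and cultured CD4+ than in activated cells. A trended robust prior left 0 lower in either culture. Array weights gave 1 higher in activated than naive cells, 1 lower in NKT-like than cultured CD4+ cells, and 1 and 0 higher in NKT-like and cultured CD4+ than in activated cells. Without dim probe sets 1 was lower in activated than naive cells and 7 were higher in NKT-like than in activated cells. Quantile normalization gave 2 lower in cultured CD4+ and 3 lower in activated than naive cells and 1 higher in cultured CD4+ than in activated cells. Median centring, which moved the median of all genes in NKT-like against naive cells to 0.06 log2, against -0.05 as deposited, gave 0 lower in cultured CD4+ than in naive and 0 higher than in activated cells. Averaging every probe set of a gene gave 4 higher and 1 lower in activated than naive cells. Ssr4 turned to -0.19 log2 (q = 0.147) in NKT-like and -0.27 log2 (q = 0.10) in cultured CD4+ against naive cells when probe sets with the suffix of multiple matches were avoided, and Syvn1 was no longer called (0.68 log2, q = 0.02, and 0.49 log2, q = 0.069), since another probe set then stood for the gene. For the other changes the cause was not tested.

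Replicate numbers are shared by the groups. The correlation of the deviations of same-numbered samples from their group means was -0.50 to 0.28 over 13 pairs and over 0.1 in 3. In a group of 2 the deviations mirror each other, so these pairs are not independent. They cannot show whether same-numbered samples varied together. With the replicate number as a block, 9 members rose and 0 fell in NKT-like against naive cells, 11 higher and 0 lower in cultured CD4+ cells and 1 higher in activated cells. Between NKT-like and cultured CD4+, NKT-like and activated, and cultured CD4+ and activated cells 0, 0 and 0 were higher.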
